A study of Drosophila melanogaster with 2 samples.

Results

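Rough-eGFP peaks in introns near transcription starts made up 342 of the 1883 thresholded peaks on the chromosome arms of *Drosophila melanogaster* (18.2%, Wilson 95% interval 16.5 to 19.97). The whole thresholded list held 1969 peaks, of which the 86 outside the arms had no class. A peak belonged to the set when its summit lay inside a gene, in no annotated exon of any transcript, and more than 500 bp but at most 3000 bp from the nearest annotated transcript start. Within the thresholded list the choice used position alone and no measured value, but the list itself had been cut by the authors' threshold. The libraries came from whole embryos, 0 to 24 h old, of the strain ro-GFP, which carries a transgene for a fusion of Rough with eGFP, and chromatin sheared to between 200 and 800 bp was precipitated with an antibody against GFP. There was 1 group of 2 biological replicates, so no condition was compared, and no control library was analysed here. The pooled ages and whole bodies mean that a peak cannot be assigned to a tissue or a stage, and the lists report the tagged fusion rather than the untagged protein.

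Rough, the product of *ro*, is a homeodomain transcription factor known above all for patterning the photoreceptors of the compound eye, where it acts in the cells next to the founder photoreceptor. Homeodomains bind short A/T-rich words, often with a TAAT core. In flies, introns close to a start, the first introns in particular, are known to hold enhancers and alternative promoters, so this location lies between the promoter itself and the more distant enhancers.

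The bases from 50 bp before to 50 bp after the summits of the 6 strongest of these intronic peaks on arms 2L, 3L, 3R and X whose windows hold no exon are printed first, because a base composition shared by the set is visible in them. Capitals mark any of the 8 palindromes of 6 bases made only of A and T (they read alike on both strands, may overlap, and are each spelled out with their counts further on). All sequences are the plus strand of the Release 6 assembly (dm6), 5′ to 3′, named by the gene whose intron holds them.
CG11050, chr2L:6612677-6612777: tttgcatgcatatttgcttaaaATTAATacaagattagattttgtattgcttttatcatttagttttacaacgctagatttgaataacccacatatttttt
CG32772, chrX:4910316-4910416: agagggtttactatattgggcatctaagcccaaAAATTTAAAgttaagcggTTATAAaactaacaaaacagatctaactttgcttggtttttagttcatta
CG3726, chrX:5918866-5918966: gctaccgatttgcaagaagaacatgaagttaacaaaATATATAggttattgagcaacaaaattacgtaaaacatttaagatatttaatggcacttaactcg
CG9663, chr2L:3302135-3302235: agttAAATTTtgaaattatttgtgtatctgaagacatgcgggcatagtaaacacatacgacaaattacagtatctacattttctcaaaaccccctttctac
Trl, chr3L:14759472-14759572: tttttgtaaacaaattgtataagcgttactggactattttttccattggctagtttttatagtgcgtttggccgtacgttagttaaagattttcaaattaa
LPCAT, chrX:9579238-9579338: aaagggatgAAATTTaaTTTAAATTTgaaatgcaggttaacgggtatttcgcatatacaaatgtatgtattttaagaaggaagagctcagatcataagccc
The next 3 are the strongest with the homeodomain palindrome TAATTA (capitals) within 50 bp of the summit, among the 285 members on those arms whose windows hold no exon.
NFAT, chrX:13640475-13640575: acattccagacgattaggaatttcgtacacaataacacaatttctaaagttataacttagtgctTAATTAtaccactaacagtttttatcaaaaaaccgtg
Btk, chr2L:8292537-8292637: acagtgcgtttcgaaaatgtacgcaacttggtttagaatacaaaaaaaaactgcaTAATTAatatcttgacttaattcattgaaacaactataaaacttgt
Hsp83, chr3L:3194214-3194314: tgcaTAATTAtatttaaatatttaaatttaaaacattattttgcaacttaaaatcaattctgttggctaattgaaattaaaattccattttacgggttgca
The last 2 are, among the same 285 members, the strongest with GAGAG or its complement CTCTC (capitals), the word bound by the GAGA factor, which *Trl* encodes.
Raf, chrX:2297678-2297778: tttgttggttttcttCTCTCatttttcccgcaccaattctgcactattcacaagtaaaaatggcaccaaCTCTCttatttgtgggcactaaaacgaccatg
brat, chr2L:19165105-19165205: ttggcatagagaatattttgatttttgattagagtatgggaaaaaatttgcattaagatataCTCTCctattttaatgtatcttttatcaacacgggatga

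The intronic peaks near starts were denser than those deeper in introns and sparser than those at promoters. There were 20.5 of them per megabase of eligible sequence, against 48.3 per megabase within 500 bp of a start, 8.42 in introns beyond 3000 bp from a start and 6.94 between genes. The ranked list over both replicates, from which the thresholded list was drawn, held 15774 candidate peaks in the same location, of which 342 (2.17%, 1.95 to 2.41) were kept. Over all arms 1.34% of 140636 candidates were kept. The share was 4.65% within 500 bp of a start, 0.854% in introns beyond 3000 bp and 0.759% between genes. These shares follow from the authors' threshold and from how many weak candidates a location holds, and they were not tested.

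Within introns, the share of candidates kept was smaller in each successive distance bin from a start out to 4000 bp. It was 6.56% (5.82 to 7.39) up to 500 bp, outside the set. Inside the set it was 3.35% (2.83 to 3.96) from 500 to 1000 bp, with 131 peaks. It was 2.29% from 1000 to 1500 bp, 1.79% from 1500 to 2000 bp, 1.57% from 2000 to 2500 bp and 1.27% (0.895 to 1.79) from 2500 to 3000 bp. From 3000 to 4000 bp it was 1.22% (0.927 to 1.597), and beyond 20000 bp it was 0.457%. The intervals of neighbouring bins overlapped beyond 500 bp, those from 500 to 1500 bp only barely, and no step was visible at the upper limit of 3000 bp.

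**Figure D1:**
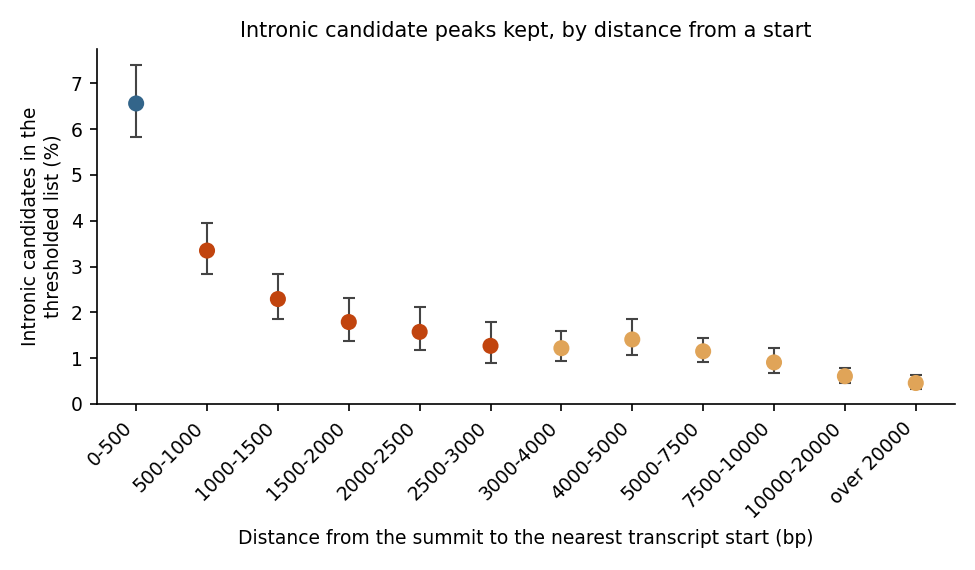
The share (%) of intronic candidate peaks of the ranked list that were in the thresholded list is plotted against distance from the nearest start (bp), with Wilson 95% intervals. Red points are the bins of the intronic peaks near starts, which run from 3.35% at 500 to 1000 bp to 1.27% at 2500 to 3000 bp; the blue point lies below 500 bp and the yellow points beyond 3000 bp.

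The members next to each limit are given with the signal value, the authors' strength value for each peak, which has its own scale in each list. Just inside 500 bp lay peaks in *MESR3* (502 bp, signal value 108.5), *pAbp*, which encodes the poly(A)-binding protein (505 bp, 112.3), and *RhoGAP68F* (505 bp, 67.6). Just outside it lay peaks in *CG42671* (500 bp, 174.2), *CG32638* (495 bp, 93.3) and *Pino* (489 bp, 85.9). Just inside 3000 bp lay peaks in *Liprin-gamma* (2995 bp, 58.7), *lili* (2936 bp, 100.9) and *upSET* (2918 bp, 135.1). Just outside it lay peaks in *CG1677* (3026 bp, 143.2), *chn* (3037 bp, 71.4) and *CG15211* (3042 bp, 74.9).

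The peaks lay mostly in the first intron of a gene and near a start of that same gene. Of the 342, 270 (78.9%, 74.3 to 82.9) were in a first intron of at least 1 transcript of the gene that holds the summit, here called the host, and 182 (53.2%) were in first introns only. Of the 15432 candidates in the same location outside the thresholded list, 60.5% (59.7 to 61.3) were in a first intron. The nearest start belonged to the host for 286 peaks (83.6%, 79.3 to 87.2) and for 65.8% (65.1 to 66.5) of those candidates. The peaks lay nearer to a start than the candidates (median 1224 against 1580 bp), and distance moves with these shares. At matched distance the first-intron share was 80.2% against 66.6% from 500 to 1000 bp, 81.0% against 61.3% from 1000 to 2000 bp, and 73.0% against 54.9% from 2000 to 3000 bp. The intervals of the peaks and of the candidates did not overlap in any of the 3 bins, and the difference was not tested.

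A large minority lay upstream of the host's own nearest start, at any distance from it. The summit came after that start for 228 peaks (66.7%), and before it for 114 (33.3%, 28.5 to 38.5), so that the host had another start further upstream. The host's start could be far off: 1 peak in *CG1677* had an offset of -50154 bp, and its nearest start was that of *CBP*. No share of the candidates is given for this measure. Relative to the nearest start of any gene, 199 summits (58.2%, 52.9 to 63.3) were downstream, against 63.6% (62.9 to 64.4) of the candidates. The shortest host intron that holds the summit had a median length of 6182 bp (quartiles 2668 and 13968 bp), against 6408 bp for the candidates. The median distance from the summit to an exon of the host was 950 bp, against 1083 bp for the candidates. The host was protein coding for 336 of the 342 (98.2%), near the 97.6% of the candidates. In introns of at least 2 genes lay 29 summits (8.48%, 5.97 to 11.9), against 6.79% (6.40 to 7.20) of the candidates.

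The 15 strongest members had signal values from 329.5 to 944.4 in the list over both replicates, and all 15 overlapped a peak in the thresholded list of each replicate. Of these 15, 12 lay in a first intron and 6 lay upstream of the host's own nearest start. The strongest, at 944.4, lay 1040 bp downstream of a start of *CG11050*, in a second intron of only 140 bp on arm 2L, with values of 459.1 in replicate 1 and 492.7 in replicate 2 in their own ranked lists. It was the only one of the 15 in so short an intron; the next shortest was the 1054 bp intron of *CG32772* on arm X, whose peak had 589.1 over both replicates, 326.7 in replicate 1 and 243.0 in replicate 2. The next-strongest after *CG11050*, at 784.0, lay 789 bp downstream of a start of *Adf1*, which encodes a MADF-domain transcription factor, and had 444.5 and 355.6 in replicates 1 and 2.

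A peak of 639.7 lay in introns of *HmgZ* and 1 further gene, 558 bp upstream of an alternative start of *HmgZ*, which encodes an HMG-box chromatin protein; it had 357.9 and 272.6 in replicates 1 and 2. A peak of 484.6 lay in a second intron of *Trl*, 1527 bp downstream of a start, with 307.0 and 174.8. *Tlk*, the gene for the Tousled-like kinase, had a peak of 417.6 (223.1 and 197.2), 2323 bp downstream of a start and in an intron of 41450 bp. *Raf*, the kinase between Ras and MEK, had one of 329.5 (152.5 and 180.4), 2262 bp downstream of a start and in an intron of 43637 bp. In each of these, both replicates had a value far above the members' medians of 63.6 for replicate 1 and 46.1 for replicate 2 in those ranked lists.

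The other 8 hosts among the 15 included genes of several kinds. *CG3726* had a peak of 535.7, *CG9663* one of 506.5 and *CG12769* one of 441.5. *LPCAT*, a gene for a lysophospholipid acyltransferase, had 426.0, and *chif*, which encodes the replication factor Chiffon, had 378.7. *NFAT*, a transcription factor gene, had 376.8, *KCNQ*, a potassium channel gene, had 376.1, and *CG9837* had 339.7. The *KCNQ* peak was the single one of the 15 whose nearest start belonged to another gene, *mlt*, 765 bp away.

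Of 291 host genes, 254 had 1 such peak and 37 had 2 or more. The 37 are not all hosts of separate peaks, since in some of them 1 member overlapped a stronger peak of the thresholded list. Among these were *trbl* and *CG10543* with 3 members each, and *Ubx*, *simj* and *pot* with 2 each. *CHES-1-like*, a gene of the forkhead family, had 5, with signal values of 319.3, 243.0, 104.8, 82.4 and 26.4; the first pair overlapped a peak in each replicate's own list, and the last overlapped the stronger peak at 104.8. *Tlk* had 4, at 417.6, 119.8, 108.4 and 97.3, of which the first pair were in both lists. *CG1677* also had 4, from 57.0 to 105.9, and none of its 4 was in both lists; each of them was in the list of replicate 1 alone. *HmgZ*, *Raf*, *CG32264*, *trbl*, *CG10543*, *CG43658* and *RhoGAP18B* had 3 each. Within these hosts the strongest peak stood well above the others in *Raf* (329.5 against 116.2 and 84.1) and *HmgZ* (639.7 against 99.7 and 70.5), and little above them in *RhoGAP18B* (110.2 against 97.3 and 68.1).

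Taken as whole classes, the intronic peaks near starts lay below promoter peaks and above distal intronic ones in signal value. Their values ran from 3.43 to 944.4, with a median of 101.1 and quartiles of 78.3 and 145.9. The median was 116.3 within 500 bp of a start, 89.6 in introns beyond 3000 bp and 95.7 between genes. Within introns it did not fall steadily with distance, and the order did not hold across the limit of 3000 bp. The median was 84.9 for the 31 members from 2500 to 3000 bp and 109.0 for the 51 peaks from 3000 to 4000 bp. Of the 342, 169 (49.4%) lay above the median of all arm peaks, 101.7. That was 10.3 percentage points below the share of promoter peaks (59.7%, 95% interval of the difference -16.5 to -4.09, two-sided Fisher's exact test, adjusted p = 0.0019). It was 14.2 points above the share of distal intronic peaks (35.3%, 6.58 to 21.5, Fisher's exact test, adjusted p = 0.000817). The 5.83 points above intergenic peaks (43.6%) were not past the threshold (-2.10 to 13.6, Fisher's exact test, adjusted p = 0.167).

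These Fisher p-values were adjusted over 3 comparisons by the Benjamini-Hochberg method with a threshold of 0.05, and they compare peaks of 1 pair of libraries, which are not replicates of a condition. By the same exact test, with the list of replicate 2 alone, the difference from promoter peaks (-9.55 points, adjusted p = 0.0894) and from distal intronic peaks (8.32 points, adjusted p = 0.274) was not past the threshold, and with peaks of q at most 0.05 that from promoter peaks was not either (-5.77 points, adjusted p = 0.229). The difference from intergenic peaks passed the exact test among peaks of q at most 0.05 (16.5 points, adjusted p = 0.0133) and at the upper quartile of signal in place of the median (8.88 points, adjusted p = 0.00656).

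**Figure D2:**
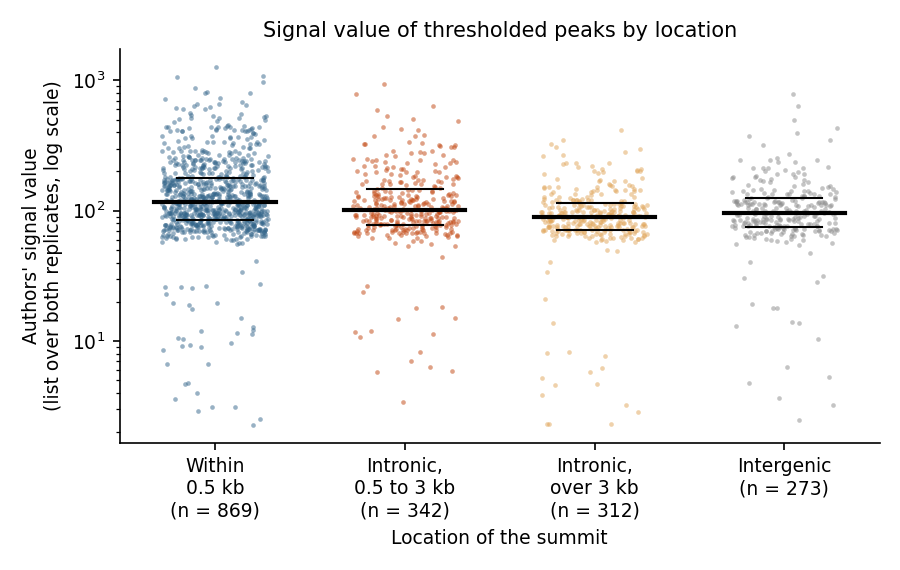
Each point is 1 thresholded peak, placed by the authors' signal value in the list over both replicates (log scale) and by location class; thick lines are medians and thin lines quartiles. The 342 intronic peaks near starts have a median of 101.1, between the 116.3 of promoter peaks and the 89.6 of intronic peaks beyond 3000 bp, and in each class a few points lie far below the rest.

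Among the members, the points far below the rest were peaks that overlapped a stronger one. All 17 members with a signal value under 50 overlapped a stronger peak of the same thresholded list, and the other 325 had at least 53.6. These 17 had values from 3.43 to 44.0, and 5 of them counted as being in both replicates' lists. Without them 39.1% of the members were in both lists.

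Agreement between replicates followed the same order of locations, but it is not a measure independent of signal value. Of the members above their own median signal 70.2% were in both lists, and of the rest 7.02%. Of the 342 members, 132 (38.6%, 33.6 to 43.9) overlapped by at least 1 bp a peak in the thresholded list of each replicate, close to the 39.6% of all 1883 arm peaks. A further 104 (30.4%) did so in replicate 1 alone, 36 (10.5%) in replicate 2 alone and 70 (20.5%) in neither. The share in both lists was 11.8 points below that of promoter peaks (50.4%, -17.8 to -5.59, two-sided Fisher's exact test, adjusted p = 0.000626). It was 12.96 points above that of distal intronic peaks (25.6%, 5.79 to 19.9, Fisher's exact test, adjusted p = 0.00066) and 11.1 points above that of intergenic peaks (27.5%, 3.63 to 18.3, adjusted p = 0.00454).

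The share in both lists was largest in the bin nearest to a start, without a steady fall beyond it. From 500 to 1000 bp, 63 of 131 (48.1%, 39.7 to 56.6) were in both lists. The count was 24 of 80 peaks from 1000 to 1500 bp, and the share 40.4% of 57 from 1500 to 2000 bp, 37.2% of 43 from 2000 to 2500 bp and 19.4% (9.19 to 36.3) of 31 from 2500 to 3000 bp. Outside the set, from 3000 to 4000 bp, the share in both lists was 35.3% (23.6 to 49.0) of 51 peaks. With a lower limit of 1000 bp the difference was 7.06 points from distal intronic and 7.81 points from intergenic peaks (Fisher's exact test, adjusted p = 0.0931 for each). Among peaks of q at most 0.05, the difference from promoter peaks was -4.50 points (Fisher's exact test, adjusted p = 0.253) and that from distal intronic peaks 10.6 points (adjusted p = 0.128), and in the conservative list that from intergenic peaks was 7.28 points (adjusted p = 0.117).

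**Figure D3:**
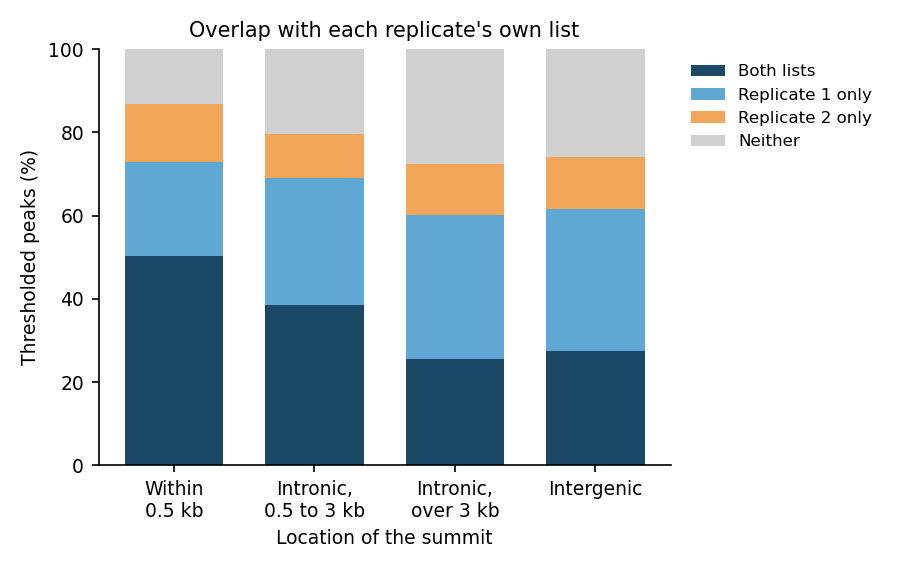
Bars give the share (%) of thresholded peaks of each location class that overlap a thresholded peak of both replicates, of replicate 1 alone, of replicate 2 alone, or of neither. In both lists were 38.6% of the intronic peaks near starts, 50.4% of promoter peaks, 25.6% of intronic peaks beyond 3000 bp and 27.5% of intergenic peaks.

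Members in both lists were stronger than the rest, a description only, since the lists were themselves cut by strength. Their median signal value was 168.2, against 91.9 for those in the list of replicate 1 alone, 89.4 for replicate 2 alone and 71.2 for those in neither. By the authors' q value, 54.4% of the members lay above 0.05, close to the 53.4% of all arm peaks. The share was 43.7% of promoter peaks, 68.3% of distal intronic peaks and 59.0% of intergenic peaks. Among the members this share was 9.85% of those in both lists, 76.0% and 72.2% of those in 1 list, and 97.1% of those in neither. Of all members, 264 (77.2%) overlapped a peak of the smaller, conservative list over both replicates, against 75.5% of all arm peaks and 83.5% of promoter peaks.

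Nearly all members had a candidate peak in each replicate's own ranked list: 340 in replicate 1, 333 in replicate 2 and 331 in both. Across those 331, the signal values of the replicates had a rank correlation (Spearman) of 0.51, and the Pearson coefficient of their log10 values was 0.63. These points share 1 pair of libraries and were chosen for reproducibility by the threshold, so the correlation is a description. The summits of the replicates lay close to that of the list over both, at a median of 16 bp in replicate 1 and 18 bp in replicate 2, and within 50 bp for 81.8% and 80.5% of the peaks.

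**Figure D4:**
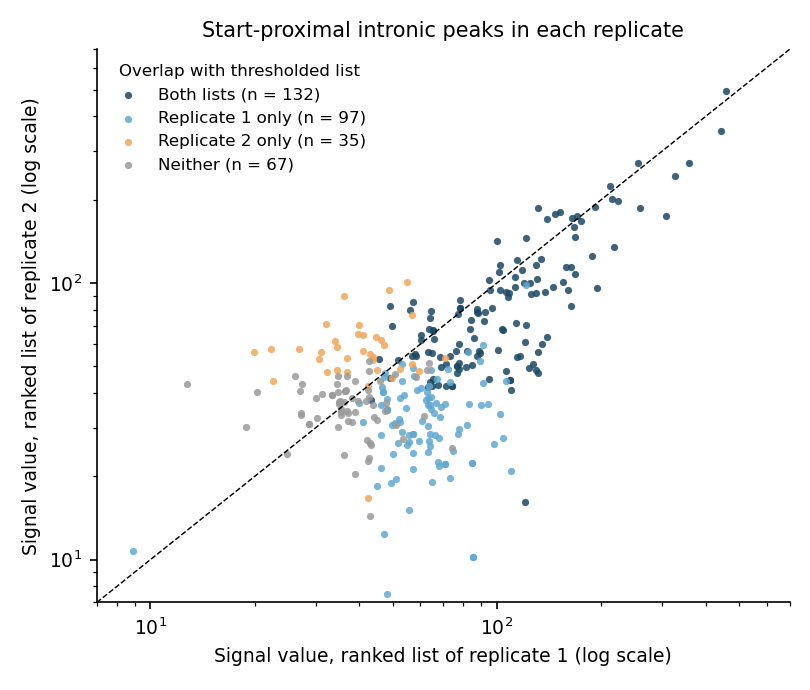
Each point is 1 of the 331 members with a peak in both ranked lists, placed by its signal value in replicate 1 and in replicate 2 (log scales), with equal values on the dashed line. Peaks in both thresholded lists reach the upper right, up to 459.1 and 492.7 in *CG11050*, while those in 1 list or neither form the cloud at lower values.

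The arms differed in how many such peaks they carried. Arm X held 87 of the 342 (25.4%), against 20.1% of the candidates in the same location and 18.1% of all arm peaks, and 2.75% (2.24 to 3.38) of its candidates were kept. The share kept was 1.94% on 2L, 1.74% on 2R, 2.18% on 3L and 2.19% on 3R, and the interval of X overlapped those of 2L, 3L and 3R and, barely, that of 2R. Chromosomes 4 and Y, with 4 and 7 candidates, had none. The share of members in both replicates' lists was 50.9% on 2L, 45.3% on 2R and 44.8% on X, and 28.4% on 3L and 28.05% on 3R. No test was made between arms.

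Of the 9 lists of genes reported here, the largest share of hosts was in receptor tyrosine kinase and Ras signalling. Of 9099 protein-coding genes with intronic sequence in the distance range, 285 (3.13%) hosted at least 1 member. In the Ras list 7 of 31 genes did (22.6%, 11.4 to 39.8). Hosting follows the amount of sequence: hosts had a median of 5.17 kb of intron in range and genes without a member 0.402 kb. Among the 2275 genes with the most such intron (2.15 to 70.8 kb), 9.85% hosted a member. The median in the Ras list was 3.535 kb. Per 100 kb of such intron there were 4.20 members in the Ras list, against 1.94 over all protein-coding genes. By that rate the Ras list was not the highest. The cell cycle list had 6.47, all from 1 host, and the Polycomb and trithorax list 4.57, while the other reported lists had 0.700 to 2.98. These are counts, with no test.

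The Ras-pathway hosts covered ligands, their processing, a receptor, an adaptor and a nuclear repressor. *S*, which encodes Star, a factor for the export of EGF receptor ligands, had a peak of 219.7, with 124.6 in replicate 1 and 100.2 in replicate 2. *ths*, an FGF ligand gene, had one of 199.3 (102.0 and 94.4), and *aop*, which encodes Yan, the ETS repressor of the pathway, one of 189.7 (113.7 and 71.5). All 3 lay in first introns and in both replicates' lists. The other hosts were *InR*, the insulin receptor gene (168.3), *drk*, which encodes the adaptor between receptor and Ras activation (149.3), *ru*, a gene for a ligand-processing protease (101.9), and *Pvf3*, a ligand gene (83.1); the last pair were in the list of replicate 1 only. For the peaks in *drk* and *ru* the nearest start was that of another gene, *mars* and a tRNA gene. The nearest starts of *drk* and *ru* themselves lay 2529 and 8404 bp away. *Raf*, described above, was not in the list of genes counted here.

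The other 8 lists held fewer hosts each. In the Hedgehog, Wnt and Dpp list 3 of 24 did: *Mad*, the Dpp signal transducer (202.5), *shn*, which encodes its nuclear partner Schnurri (129.2 and 78.7), and *nkd*, a Wnt antagonist (93.3). In the Notch list 1 of 17 did, *neur*, a ubiquitin ligase gene (124.2), and in the Hippo and insulin list 1 of 23, *ex* (118.8). Of 69 homeobox genes with sequence in range, 4 did: *zfh1* (248.1), *Ubx* (83.7 and 5.73), *Abd-B* (83.7) and *NK7.1* (77.3), and *zfh1* alone of these was in both lists. The ecdysone and nuclear receptor list had 3 of 24, *EcR*, the ecdysone receptor gene (127.9), *Hr3* (116.2) and *Eip74EF* (64.9), none in both lists. Of the Polycomb and trithorax genes 2 of 34 did, *Trl* (484.6 and 87.4) and *ph-p* (98.8); of the axon guidance and adhesion genes 2 of 37, *mew*, an integrin gene (120.9), and *Ten-a* (73.9). The cell cycle list had 1 host of 25, *trbl*, with 3 peaks, of which 1 overlapped a stronger one. For some peaks of these lists the nearest start was that of another gene, among them those in *ex*, *EcR*, *mew* and *Ubx* (83.7). The nearest starts of these 4 hosts themselves lay 10905, 5845, 22871 and 16292 bp away, in that order.

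The summits were rich in A and T. Within 50 bp either side of the summit, A and T made up 66.3% ± 8.72 (SD over 342 peaks), against 56.3% ± 9.45 in windows of the same length centred 300 bp to the right. The summit window was the richer one in 264 of 342 peaks (77.2%, 72.5 to 81.3). The candidates in the same location outside the thresholded list had 56.3% at the summit and 58.2% beside it, with no rise. Promoter peaks had 67.3% at the summit, distal intronic peaks 65.7% and intergenic peaks 63.7%, so these 3 classes also had summits richer in A and T than their flanks, which held 55.5%, 55.3% and 55.6%; exonic peaks were not measured. Among the members, those above their median signal had 68.5% ± 7.34 and the rest 64.1% ± 9.42.

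**Figure D5:**
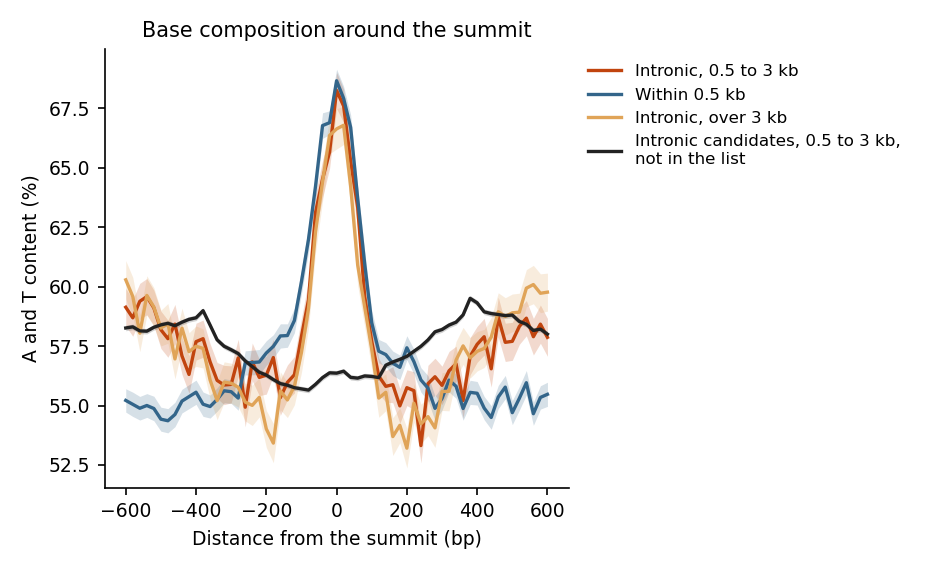
The A and T content (%) in 21 bp windows is plotted against distance from the summit (bp), as the mean over peaks with its standard error shaded. The intronic peaks near starts rise to 68.3% at the summit, like the other thresholded classes, while the 15432 candidates of the same location have 56.4% there and no rise at the summit.

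None of 9 known binding words passed a test of its frequency at the summit against that in the flank window. All were searched on both strands. TAATTA is a palindrome that many homeodomains bind, and TAATGG is a related word of the same TAAT core. TTTATG is a word of the posterior Hox proteins, CAGGTA that of the early embryonic activator Zelda, and GAGAG that of the GAGA factor. TATCGATA is the DREF element, and CACGTG is an E-box bound by basic helix-loop-helix proteins. GATAAG is the word of GATA factors, and ATTTGCAT is the octamer of POU proteins. With exact McNemar tests adjusted over the 9, 0 passed 0.05, and 0 had an unadjusted p under it. TAATTA was within 50 bp of 34 of 342 summits (9.94%, 7.20 to 13.6) and in 7.02% of the flank windows (exact McNemar p = 0.229, adjusted p = 0.453), against 12.2% of promoter summits, 6.67% of candidates in the same location and 4.65% of candidates on all arms. The summit share of TAATTA minus its flank share, 2.92 points, was 6.98 points with the list of replicate 2 alone, 4.94 with that of replicate 1 alone, 7.58 with a lower limit of 1000 bp and 4.68 against the left flank, with unadjusted p of 0.0357, 0.0596, 0.0139 and 0.0259; over its 12 alternatives the difference ran from 0.746 to 7.58 points and the adjusted p from 0.125 to 1 (exact McNemar tests). GAGAG was at 47 summits (13.7%) and in 65 flank windows (19.0%, exact McNemar p = 0.0758, adjusted p = 0.453), against 7.71% of promoter summits, 12.3% of candidates in the same location and 12.4% of those on all arms. With the list of replicate 1 alone, the summit share of GAGAG minus the flank share was -9.89 points (exact test, adjusted p = 0.0438), and with an upper limit of 5000 bp it was -7.01 points (adjusted p = 0.0479). TAATGG was at 6.14% of summits, TTTATG at 12.9%, CAGGTA at 1.46%, CACGTG at 0.292%, GATAAG at 5.56% and ATTTGCAT at 2.34%; in candidates of the same location these were 5.47%, 11.8%, 2.25%, 1.65%, 4.54% and 2.35%, and over candidates on all arms 4.75%, 9.19%, 2.39%, 1.48%, 3.56% and 1.64%. TATCGATA was at none of the 342, which allows a share of up to 0.877% by the limit of 3 counts and 1.11% by the Wilson interval, at 0.13% of candidates in the same location and at 0.183% of those on all arms.

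The palindromes made only of A and T, marked in the sequences above and chosen for description after the base composition had been seen, were all more frequent at summits than beside them. TTTAAA was at 75 summits (21.9%, 17.9 to 26.6) and in 6.43% of flank windows, and AATATT at 65 summits (19.0%) and in 3.801%. ATTAAT was at 12.6% and in 4.39%, AAATTT at 15.2% and in 7.89%, and ATATAT at 13.5% and in 6.43%. TATATA was at 10.2% and in 5.56%, and TTATAA at 9.94% and in 4.68%. Of these 8 words TAATTA had the smallest ratio between summit and flank in the members, 1.42, and AATATT the largest, 5.0. The members had TAATTA at 9.94% of summits and in 7.02% of flank windows. Promoter, distal intronic and intergenic peaks had it at 12.2%, 8.33% and 9.52% of summits. Their flank windows held it in 5.18%, 3.21% and 3.66%, each below the members' flank share. All 8 words were likewise more frequent at the summits of promoter, distal intronic and intergenic peaks than in their flanks, so the rise was not particular to the members. TTTAAA was at 25.3%, 17.6% and 18.3% of those summits, and in 7.48%, 5.45% and 6.59% of their flank windows. In candidates of the same location TTTAAA was at 7.58%, AATATT at 7.11% and ATTAAT at 5.88% of summits, and over candidates on all arms at 5.74%, 5.63% and 4.34%. Summits held more A and T than their flanks, which by itself moves with the count of any such word, and the part of base composition in these counts was not tested.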

How the data were processed

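The authors deposited thresholded and ranked peak lists for each replicate and for both together, on dm6 per the labels; what aligner and peak caller made them is not given in the sources used here. Each peak has the authors' signal value and −log10 q, as deposited, and in the lists over both replicates that log10 column holds some values slightly below 0. No read totals are in these lists, so depth is unknown and intervals cover counting of peaks only. Of the pooled ranked lists, 16 columns were matched to no sample and not used. Summits were placed against Ensembl release 115 (BDGP6 6.54), without pseudogenes and transposable elements, on arms whose lengths matched the Release 6 sequence. The host was the protein-coding gene over the summit with the nearest start, or else any gene. Shares have Wilson 95% intervals; differences were tested with Fisher's exact or McNemar's exact test (scipy 1.17.1, Python 3.11.15), tested on simulated data. Named were the hosts of the 15 strongest members, hosts with at least 3, up to 3 hosts per gene list and the members next to each limit; further list hosts and the long non-coding host were named after their values were seen. The result of 1 further gene list is not reported here. Members and lists were chosen with earlier results of these data known. Alternatives were other distance limits, the conservative list, each replicate's list, q at most 0.05, no overlapping peaks, other signal levels and the strongest 20000 candidates.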

Additional observations from a re-analysis of the deposited data

How the results depend on the processing

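Of 123 alternative values, 98 kept their direction and their side of the threshold or moved little, and none reversed. The share in both replicates' lists was -4.50 points against promoter peaks at q of at most 0.05. Against distal intronic peaks it was 7.06 points with a lower limit of 1000 bp and 10.6 at q of at most 0.05, and against intergenic peaks 7.81 points with that lower limit and 7.28 in the conservative list; none of these 5 passed the threshold, and the cause was not tested. The share above the median signal was -9.55 points against promoter peaks without replicate 1 and -8.19 without replicate 2, and -5.77 at q of at most 0.05. Against distal intronic peaks it was 8.32 without replicate 1 and 15.04 without replicate 2. Against intergenic peaks it was 16.5 points at q of at most 0.05 and 8.88 at the upper quartile, both past the threshold. Words past the threshold numbered 1 with an upper limit of 5000 bp, and between 0 and 1 without either replicate. The share of candidates kept was 2.53% with an upper limit of 2000 bp, 1.89% with 5000 bp, 1.78% with a lower limit of 1000 bp, 2.85% without overlapping peaks, 1.83% in the conservative list, 1.26% to 2.44% without either replicate and 13.8% among the strongest 20000 candidates. The share of the list was 14.2%, 23.5% and 11.2% with those 3 limits. Fewer peaks enter the q and replicate settings.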

Other observations

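The 6 members with a non-coding host all lay in long non-coding RNA genes. The strongest of them, in lncRNA:CR44810, had a signal value of 323.5 and was in both replicates' lists, while the other 5 had values from 67.3 to 103.6 and none was in both lists. These are values of single peaks, and no comparison between kinds of host was made.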
